A study of Mus musculus with 21 samples.

Results

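Ferritin stores iron, and around it stands a small set of genes that bring iron into the cell, let it out, release it from heme and sense how much there is. Here 9 such genes were followed in the left ventricle of mice with hypertrophic cardiomyopathy, out of 55450 genes in the count table. Ftl1 and Ftl1-ps1, which encode the light chain of ferritin or a near copy of it, were picked because their counts had been seen to be higher in R403Q mice on empagliflozin (EMPA). Fth1, Tfrc, Slc40a1, Slc11a2, Hmox1, Ireb2 and Aco1 were added for what they do in iron handling. All 9 passed the filter on low counts, as did 17309 genes in all, so that no gene of the set was lost.

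RNA was sequenced from the left ventricle of 21 male mice of strain 129S6/SvEv, 12 weeks of age. Wild-type littermates (WT) and mice labelled Myh6+/R404Q (R403Q), which carry 1 mutant allele of the cardiac myosin heavy chain gene, were fed a control diet (CD) or the same diet with 0.15 mg of EMPA per g. The groups were WT-CD (n = 5), R403Q-CD (n = 7), WT-EMPA (n = 5) and R403Q-EMPA (n = 4), each mouse being 1 library. The labels give 16 weeks of treatment, which cannot hold at this age, and the methods give 2 weeks. By the cage given in the labels, the 12 CD mice came from 4 cages that each held both genotypes and the 9 EMPA mice from 3 other cages, so that cage and diet cannot be told apart. Libraries held between 23491535 and 43539684 counts, and 3 counts, taken as the floor, corresponded to 0.0689 to 0.128 CPM (counts scaled to a common library size, here with TMM factors). R403Q-CD replicate 2 stood apart in its cell markers. Its summed cardiomyocyte markers were at 49911 CPM, where the next lowest mouse had 64405, and its fibroblast and macrophage markers were the highest of the 21 mice (3303 and 910 CPM).

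Ferritin is a shell built of heavy and light chains. The heavy chain, from Fth1, oxidises iron so that it can be stored, and the light chain, from Ftl1, helps the iron core to form. Transferrin receptor (Tfrc) takes up iron bound to transferrin, Slc11a2 moves that iron out of the endosome, ferroportin (Slc40a1) exports iron from the cell, and heme oxygenase (Hmox1) opens the heme ring and frees its iron. Aco1 and Ireb2 encode the iron regulatory proteins. When iron is scarce these bind a hairpin, the iron-responsive element, and block translation where it lies in the 5′ UTR, or keep the RNA from decay where it lies in the 3′ UTR. Much of the regulation of ferritin thus acts on translation and does not show in RNA counts, and protein and iron were not measured in these files.

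The elements are shown because they are the sites through which iron controls the ferritin, ferroportin and transferrin receptor transcripts. Capitals mark the loop of 6 bases, the 5 bases on either side pair with each other, and sequences run 5′ to 3′ in the sense of the transcript (GENCODE transcripts, GRCm38).
Ftl1, chr7:45459778-45459807, minus strand, 5′ UTR: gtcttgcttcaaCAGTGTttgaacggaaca
Ftl1-ps1, chr13:74406428-74406457, plus strand, 5′ UTR: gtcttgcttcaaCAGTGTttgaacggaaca
Fth1, chr19:9982732-9982761, plus strand, 5′ UTR: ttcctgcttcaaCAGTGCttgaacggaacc
Slc40a1, chr1:45925464-45925493, minus strand, 5′ UTR: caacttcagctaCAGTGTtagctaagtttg
Tfrc, chr16:32631219-32631248, plus strand, 3′ UTR: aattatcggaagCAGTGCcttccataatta
Tfrc, chr16:32631598-32631627, plus strand, 3′ UTR: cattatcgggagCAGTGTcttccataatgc
Tfrc, chr16:32631663-32631692, plus strand, 3′ UTR: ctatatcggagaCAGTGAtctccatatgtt
Tfrc, chr16:32631710-32631739, plus strand, 3′ UTR: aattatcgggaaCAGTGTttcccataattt

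The element of Ftl1-ps1 is the same as that of Ftl1 in all 30 bases printed. The search took a C, 5 bases, CAGTGN with any base but G last, and 5 bases that pair with the first 5, G with T allowed, on the transcript strand. Among UTRs of at least 30 bases, such a match stood in 15 of 19180 5′ UTRs (0.0782%) and in 83 of 20410 3′ UTRs (0.407%). The protein-coding transcripts searched for Slc11a2, Hmox1, Ireb2 and Aco1, not only the main ones, held no match. That says only that these letters are not in those transcripts. For Slc11a2 an element is known in the 3′ UTR of some transcript forms, and the search found none in those it covered.

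Ftl1 and Ftl1-ps1 are close to identical as RNA. Ftl1 lies on chr7:45457944-45459884 and Ftl1-ps1 on chr13:74399694-74407346, and although its name marks a pseudogene the annotation lists it as protein coding. Over 910 aligned bases of the main transcripts, 906 were the same (99.6%), and in the coding sequence 547 of 549. The 4 base differences, counted from 1 at the start of the main Ftl1 transcript and given as the Ftl1 base, its position and the Ftl1-ps1 base, were A196G in the 5′ UTR, G721A and G757A in the coding sequence and A817G in the 3′ UTR.

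The reads were 100 bases long and the authors counted only uniquely aligned pairs, so that pairs with no difference under either end were dropped. Of 869 stretches of 100 bases in Ftl1, 527 (60.6%) were found unchanged in a gene at another locus, and of 839 in Ftl1-ps1 603 (71.9%) were. When both ends of a 300-base fragment were used, 41.7% of the positions in Ftl1 and 46.8% of those in Ftl1-ps1 stayed ambiguous. For Fth1 8 of 830 stretches were shared, all with the processed pseudogene Gm6977, and for the other 6 genes none. The counts of Ftl1 and Ftl1-ps1 therefore came from part of each transcript, and their levels understate the RNA by an amount that was not measured. The reference genome is also that of another mouse strain, and whether the 4 differences hold in 129S6/SvEv was not tested.

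**Figure D1:**
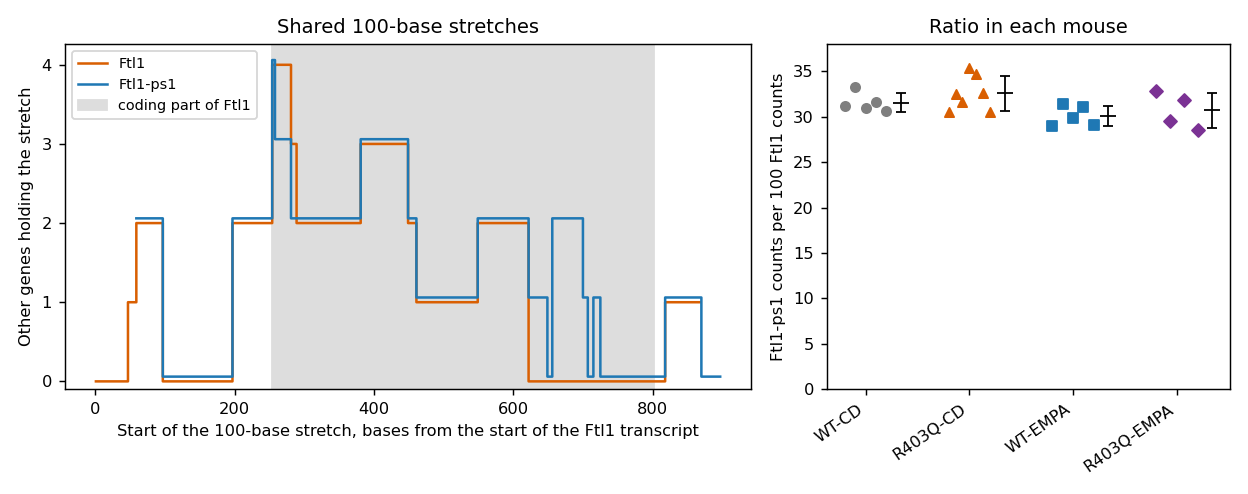
Left, number of other genes that hold each 100-base stretch of Ftl1 (orange) and Ftl1-ps1 (blue, drawn slightly higher), by start position in bases from the start of the Ftl1 transcript, with the coding part shaded. Right, Ftl1-ps1 counts per 100 Ftl1 counts in each of 21 mice, with mean ± SD. Stretches at 0 are those that a unique alignment can place, and the ratio stays between 28.6 and 35.3.

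For every 100 counts of Ftl1 there were between 28.6 and 35.3 counts of Ftl1-ps1 in the 21 mice. On CD the mean was 31.5 ± 1.04 (SD, n = 5 WT mice) and 32.6 ± 1.88 (n = 7 R403Q mice), and on EMPA 30.1 ± 1.15 (n = 5) and 30.7 ± 1.97 (n = 4). The groups overlapped in this ratio, and the genes went up and down together (Pearson r 0.964 and Spearman rho 0.958 of log2 CPM over 21 mice, and r 0.869 about the group means). Whether the counts of the copy are independent of those of Ftl1 was not tested. Processed pseudogenes that shared 100-base stretches with Ftl1 or Ftl1-ps1 were Ftl2-ps, Gm15590 and Gm12164, the last with Ftl1-ps1 only. They held 4, 66 and 10 counts in the 21 mice together, and pairs that could not be placed were dropped there too.

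Per length, the heavy chain was the most abundant transcript of the set. The level per kilobase of the main transcript averaged 2390 CPM for Fth1, 151 for Ftl1, 48.9 for Ftl1-ps1 and 27.3 for Hmox1, and then 14.0 for Slc40a1, 12.8 for Aco1, 11.6 for Tfrc, 10.5 for Ireb2 and 8.82 for Slc11a2. Fth1 stood apart from all others in every mouse, and the range of Ftl1, from 115 to 200 CPM per kilobase, overlapped with that of no other gene. Below them, neighbours in this order overlapped in their ranges. The gap between Fth1 and Ftl1 includes the reads of Ftl1 that could not be placed.

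The light chain genes were higher in R403Q hearts on the control diet than in WT hearts on that diet. Ftl1 was at 125, 120, 127, 116 and 143 CPM in the WT-CD mice, and ran from 147 to 174 CPM with a median of 160 in the 7 R403Q-CD mice. Every R403Q-CD mouse was above every WT-CD mouse. The means were 126 ± 10.5 CPM (SD, n = 5) in WT-CD and 159 ± 10.6 CPM (n = 7) in R403Q-CD, a log2 fold change of 0.33 (SE 0.0683, 1.26-fold, 95% interval 0.19 to 0.47, adjusted p = 0.0232 with edgeR's quasi-likelihood test).

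Ftl1-ps1 showed the same order at a lower level. It was at 39.0, 39.9, 39.4, 36.5 and 43.8 CPM in the WT-CD mice and ran from 44.8 to 60.4 CPM (median 50.5) in the R403Q-CD mice, again without overlap. Its log2 fold change was 0.38 (SE 0.0819, 1.30-fold, adjusted p = 0.0248 with edgeR). These were the 2 of 9 genes of the set past the threshold in this comparison. Of all genes tested, 1.44% passed it and 2.12% had groups that did not overlap. None of the 7 genes named for their function passed. Both genes that passed are those chosen by their values, and as near copies they cannot be read as 2 separate calls. With the counts of both genes added up, the log2 fold change was 0.34 (SE 0.0708, edgeR adjusted p = 0.0228).

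The size of this difference was steadier than its call. Among the other ways of processing the data, the log2 fold change of Ftl1 lay between 0.32 and 0.40 and stayed above 0 in all of them, also when single mice were left out (0.30 to 0.38). Without R403Q-CD replicate 2 it was 0.31 (edgeR adjusted p = 0.0267). The call was lost, with an edgeR adjusted p of 0.0759 for Ftl1 and 0.0897 for Ftl1-ps1, when only the R403Q-CD and WT-CD mice were fitted, and again when WT-CD replicate 1, 2, 3 or 4 was left out (adjusted p from 0.0575 to 0.0772 for Ftl1). For Ftl1-ps1 it was lost also without R403Q-CD replicate 5 (0.0541) and in a fit of 3 groups without WT-EMPA (0.0561). If the values that picked these genes had WT-CD as their control, those controls are the same mice as here.

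Since R403Q-CD and WT-CD did not overlap in either gene, cages could differ only in the size of the difference. Each of the 4 CD cages held both genotypes. The ratio of the means of R403Q to WT mice was 1.20, 1.37, 1.39 and 1.09 for Ftl1 in these cages, and 1.17, 1.38, 1.47 and 1.17 for Ftl1-ps1. With cage as a factor among the 12 CD mice, the log2 fold change of Ftl1 was 0.33 and the edgeR adjusted p 0.0767.

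**Figure D2:**
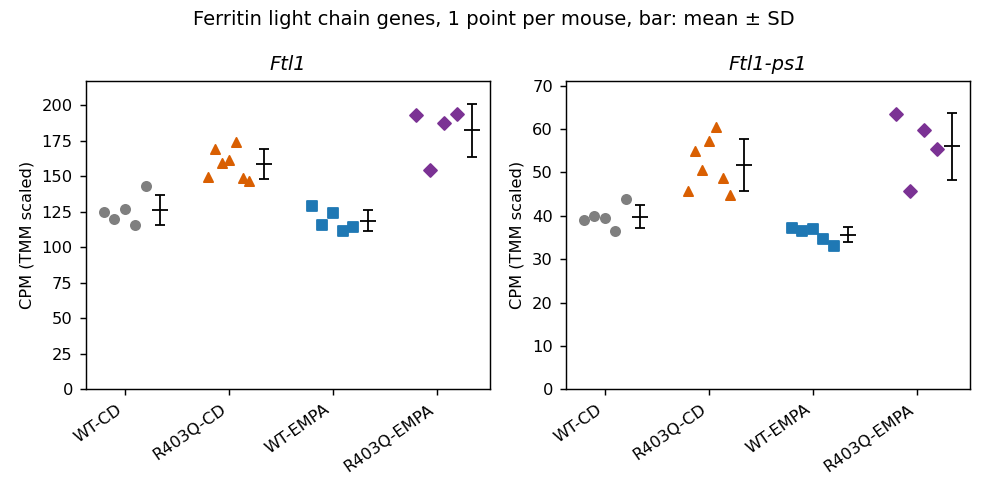
Ftl1 (left) and Ftl1-ps1 (right) in CPM after TMM scaling, from 0, in the 4 groups. Points are mice and bars the mean ± SD. The R403Q-CD mice sit above the WT-CD mice in both panels. In Ftl1 1 R403Q-EMPA mouse, at 154 CPM, sits among the R403Q-CD mice. In Ftl1-ps1 all R403Q-EMPA mice but the one at 63.4 CPM do.

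In WT hearts no change with EMPA was detected. The WT-EMPA mice had 129, 116, 124, 111 and 114 CPM of Ftl1, a range that overlapped with WT-CD. The mean was 119 ± 7.37 CPM (SD, n = 5), the log2 fold change −0.09 and its 95% interval −0.24 to 0.06 (edgeR adjusted p = 0.703). For Ftl1-ps1, at 33.1 to 37.3 CPM, the log2 fold change was −0.16 (edgeR adjusted p = 0.535). In this comparison 0 of 9 genes passed with edgeR, with DESeq2 or with limma. Of all genes, 0.0289% passed with edgeR, 0.737% with DESeq2 and 1 of 17309 with limma. Of the 9 genes 2 had an unadjusted edgeR p under 0.05, as had 11% of all genes.

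In R403Q-EMPA hearts both light chain genes had their highest group means, which is what chose them, so that the following values are a description with no test. Ftl1 was at 193, 154, 188 and 194 CPM and Ftl1-ps1 at 63.4, 45.6, 59.7 and 55.3 CPM. The mouse at 154 CPM of Ftl1 was also the one at 45.6 CPM of Ftl1-ps1. All 4 mice were above the WT-EMPA and the WT-CD mice in both genes (6.77% and 7.38% of all genes had groups that did not overlap in these contrasts). In Ftl1 3 of 4 were above all R403Q-CD mice. In Ftl1-ps1 only the mouse at 63.4 CPM was, with R403Q-CD reaching 60.4 CPM.

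The group mean of Ftl1 was 182 ± 18.8 CPM (SD, n = 4), and that of Ftl1-ps1 56.0 ± 7.69 CPM. The log2 fold change of Ftl1 was 0.20 against R403Q-CD, 0.62 against WT-EMPA and 0.53 against WT-CD. For Ftl1-ps1 these were 0.11, 0.65 and 0.49. These comparisons share the R403Q-EMPA mice. In the 2 EMPA cages with both genotypes the ratio of R403Q to WT was 1.56 and 1.67 for Ftl1, and the difference between the diets in the log2 genotype difference was 0.29 for Ftl1 and 0.27 for Ftl1-ps1.

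The heavy chain did not follow the light chain. Fth1 was at 2266, 2054, 2465, 2494 and 2423 CPM in WT-CD, from 1798 to 2698 CPM (median 2249) in R403Q-CD, at 2108, 2005, 2160, 2166 and 1849 CPM in WT-EMPA, and at 2325, 2016, 2420 and 2175 CPM in R403Q-EMPA. All 4 groups overlapped. The log2 fold change was −0.06 (95% interval −0.24 to 0.12, edgeR adjusted p = 0.72) for R403Q-CD against WT-CD and −0.01 (−0.20 to 0.19) for R403Q-EMPA against R403Q-CD. The first of these intervals ends below the start of that of Ftl1, at 0.19, although the difference between the genes was not tested. Over the 21 mice Fth1 and Ftl1 were only weakly related (r 0.162, rho 0.158, and r 0.0852 about the group means).

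Transferrin receptor, the uptake route, varied more within groups than between them. Tfrc was at 46.9, 60.0, 64.2, 84.9 and 38.9 CPM in WT-CD and at 33.9, 40.1, 54.7, 103 and 30.1 CPM in WT-EMPA. In R403Q-CD it ran from 38.5 to 85.7 CPM (median 64.6), and in R403Q-EMPA it was at 55.6, 70.1, 29.9 and 35.2 CPM. The highest mouse was 3.44 times the lowest over all 21, against 1.74 times for Ftl1 and 1.50 for Fth1. The largest group difference was −0.42 on the log2 scale, for R403Q-EMPA against R403Q-CD, with a 95% interval from −1.07 to 0.23 (edgeR adjusted p = 0.586). A difference of that size was not called, and the interval holds larger ones too. Slc11a2, the endosomal iron transporter, was narrow by contrast, with 24.2 to 30.6 CPM in all 21 mice and overlap in every comparison.

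Ferroportin, the exporter, was lowest in WT-CD. Slc40a1 was at 44.9, 33.0, 38.5, 39.0 and 42.5 CPM in WT-CD, from 33.2 to 66.9 CPM (median 44.7) in R403Q-CD, at 53.7, 47.8, 42.1, 40.0 and 58.0 CPM in WT-EMPA, and at 54.2, 49.8, 55.1 and 59.0 CPM in R403Q-EMPA. The R403Q-EMPA mice did not overlap with the WT-CD mice, as for 7.38% of all genes. That difference, 0.46 on the log2 scale (SE 0.144), had an unadjusted p of 0.00419 and an edgeR adjusted p of 0.142. Fitted without the other groups it passed, with an adjusted p of 0.0128, as did 4.07% of all genes there.

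**Figure D3:**
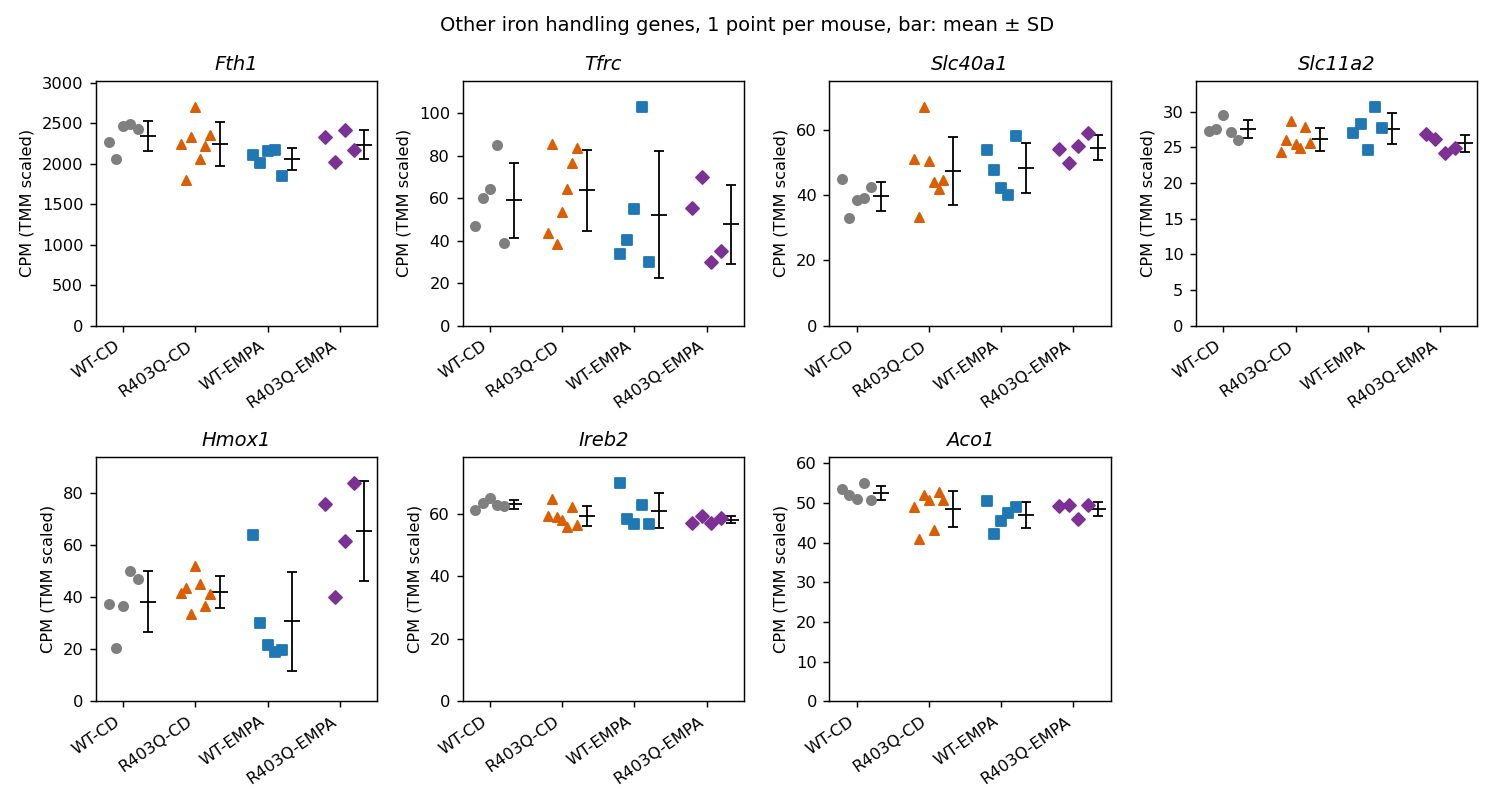
The 7 genes named for their function in CPM after TMM scaling, from 0, by group. Points are mice and bars the mean ± SD. Tfrc and Hmox1 spread widely within groups, and Slc11a2, Ireb2 and Aco1 stay within narrow ranges.

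Uptake and export ran in opposite directions from mouse to mouse. Over the 21 mice log2 CPM of Tfrc and Slc40a1 had a Pearson r of −0.698 (permutation p = 0.00055) and a Spearman rho of −0.752 (permutation p = 0.00013), with 100000 resamples. Adjusted over the 21 pairs among the 7 genes named for their function, these were 0.0115 and 0.00273, and no other pair passed. The relation was as large about the group means (r −0.756) and was −0.679 without the 2 mice farthest from the median of Tfrc. Mice were permuted freely across groups and cages, so that the permutation p-values take them as exchangeable. For the r about the group means no p-value was computed. Tfrc went against Slc40a1 more than against nearly all genes, as Slc40a1 was number 17241 of the tested genes ordered from the highest to the lowest r with Tfrc.

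Heme oxygenase was the most variable gene of the set, with the highest of the 21 mice 4.42 times the lowest. Hmox1 was at 37.5, 20.3, 36.8, 50.1 and 46.8 CPM in WT-CD and from 33.6 to 51.9 CPM (median 41.7) in R403Q-CD. On EMPA it was at 63.9, 29.9, 21.4, 19.0 and 19.6 CPM in WT mice and at 75.8, 40.1, 61.6 and 83.8 CPM in R403Q mice. Of the WT-EMPA mice 4 were below all R403Q-EMPA mice and the fifth, at 63.9 CPM, was within their range. It came from the cage that held 3 WT mice only, and its 2 cage mates were at 29.9 and 21.4 CPM.

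The difference between genotypes on EMPA was 1.08 on the log2 scale (SE 0.300, 2.12-fold, 95% interval 0.46 to 1.71), with an unadjusted p of 0.00159 and an edgeR adjusted p of 0.122, where 0.0578% of all genes passed. Without WT-EMPA replicate 1, the mouse at 63.9 CPM, it was 1.54 and passed with an adjusted p of 0.0123, and over all 21 fits that left out 1 mouse the adjusted p ran from 0.0123 to 0.347. With cage as a factor among the 9 EMPA mice it was 1.74 (edgeR adjusted p = 0.147). In the 2 EMPA cages with both genotypes the ratio of R403Q to WT was 3.05 and 3.71. In those on CD it was 1.11, 1.53, 0.853 and 0.876, and the test of the interaction gave 0.95 on the log2 scale (unadjusted p = 0.026, edgeR adjusted p = 0.999). Against R403Q-CD, R403Q-EMPA was higher by 0.64 (edgeR adjusted p = 0.318).

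Mice high in Hmox1 tended to be high in Ftl1 (r 0.735 and rho 0.699 over 21 mice, and r 0.558 about the group means), and Hmox1 was number 62 of the genes ordered by their r with Ftl1. Ftl1 was chosen by its values, so this is a description. The R403Q-EMPA mouse lowest in Ftl1 was also the lowest of its group in Hmox1 and in Fth1 and the highest in Tfrc. The WT-EMPA mouse highest in Hmox1 was the highest of its group in Ftl1. By contrast, the WT-CD mouse highest in Hmox1 (50.1 CPM) was the lowest of its group in Ftl1 (116 CPM).

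**Figure D4:**
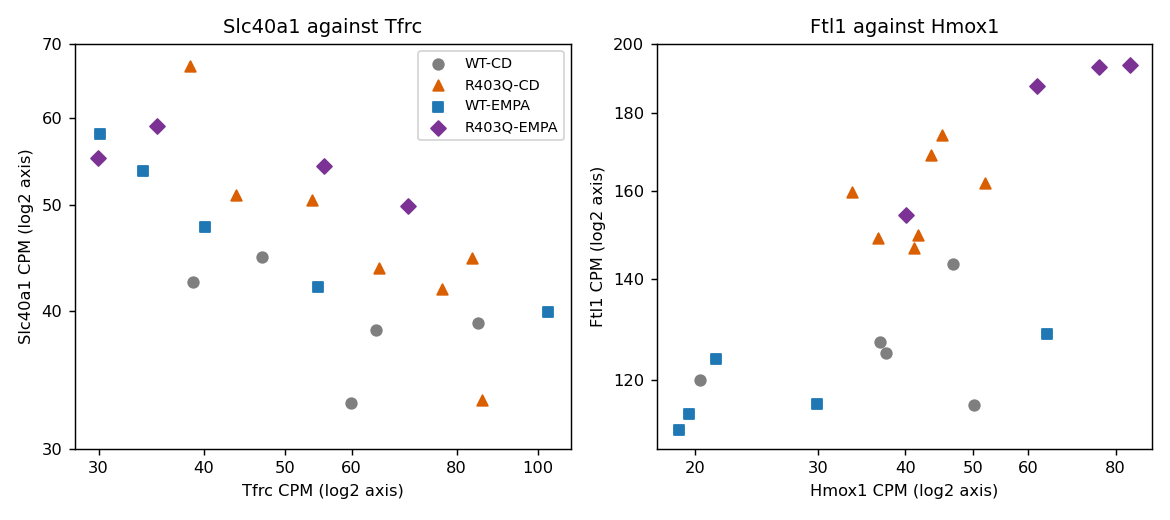
Left, Slc40a1 against Tfrc, and right, Ftl1 against Hmox1, in CPM on log2 axes, 1 point per mouse, with symbols by group. Slc40a1 falls as Tfrc rises within as well as across the groups (r −0.756 about the group means). Ftl1 tends to rise with Hmox1, with exceptions. The WT-EMPA mouse at 63.9 CPM of Hmox1 stands apart from its group and is below all R403Q mice in Ftl1.

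The iron sensors moved little. Ireb2 lay between 55.8 and 69.9 CPM and Aco1 between 41.1 and 55.1 CPM in all 21 mice. Ireb2 was at 61.2, 63.6, 65.1, 62.8 and 62.6 CPM in WT-CD and at 57.1, 59.4, 57.2 and 58.7 CPM in R403Q-EMPA, without overlap, as for 7.38% of all genes, and the log2 difference was −0.12 (edgeR adjusted p = 0.419). Aco1 was at 53.6, 52.0, 51.1, 55.1 and 50.8 CPM in WT-CD and at 50.6, 42.1, 45.5, 47.4 and 49.0 CPM in WT-EMPA. These groups did not overlap either, as for 3.45% of all genes, and the log2 difference was −0.16 (95% interval −0.30 to −0.02, unadjusted p = 0.0251, edgeR adjusted p = 0.378). Between R403Q-EMPA and WT-CD, where 7.38% of all genes did not overlap, Aco1 did not either, with 45.9 to 49.5 against 50.8 to 55.1 CPM (log2 difference −0.11, edgeR adjusted p = 0.538). None of these differences passed the threshold.

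Across the contrasts with R403Q-EMPA mice, edgeR, DESeq2 and limma called 0 of the 7 genes named for their function. Of all genes, edgeR called 0.0116% against R403Q-CD, 0.0578% against WT-EMPA, 0.971% against WT-CD and 0 of 17309 in the interaction. At an unadjusted edgeR p under 0.05 were 1 of 7 against R403Q-CD (13.4% of all genes), 1 against WT-EMPA (14.7%), 2 against WT-CD (13%) and 1 in the interaction (3.28%). With fewer mice edgeR called Slc40a1 against WT-CD when those groups alone were fitted (4.07% of all genes). It also called Hmox1 against WT-EMPA when WT-EMPA replicate 1 was left out (13 of 17230 genes).

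**Figure D5:**
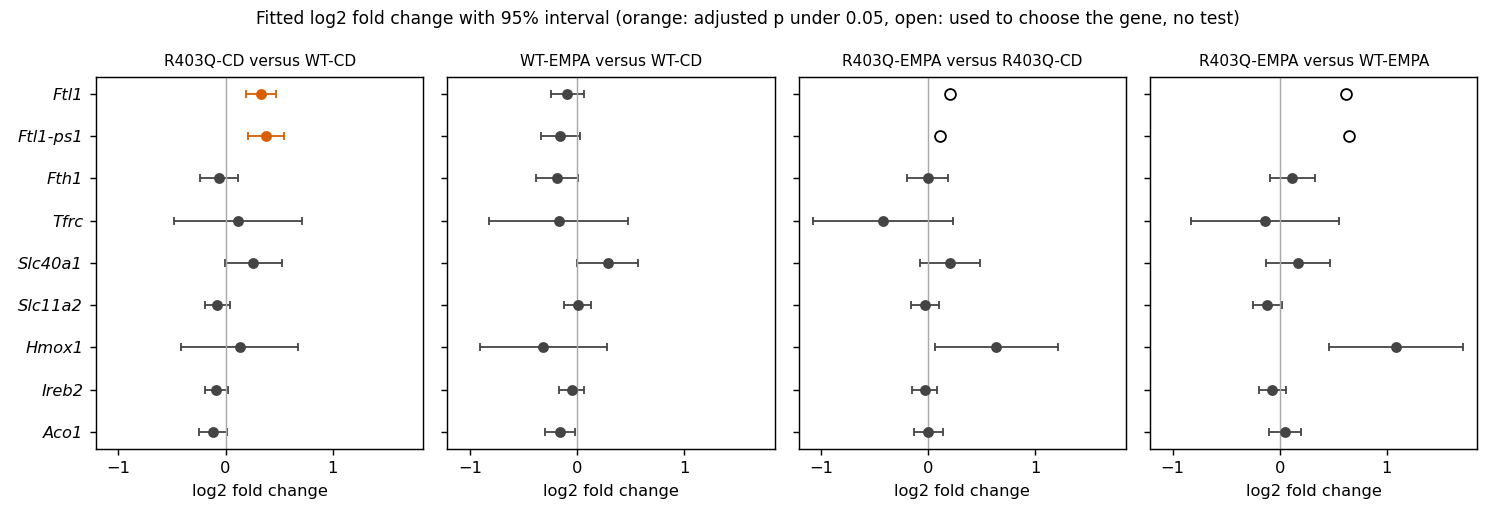
Log2 fold change of each gene in 4 contrasts (x axis), with 95% intervals from edgeR. Orange marks an adjusted p under 0.05 and open symbols mark values that chose the gene and have no interval. Ftl1 and Ftl1-ps1 in R403Q-CD against WT-CD are the calls, and the intervals of Tfrc and Hmox1 are the widest.

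The wider iron pathway was read from lists of 74 genes of iron storage, uptake, export, heme breakdown, heme synthesis, iron sensing and mitochondrial iron use, of which 64 were tested. In R403Q-CD against WT-CD 4 of 64 (6.25%) rose and 0 fell, against 1.44% of all genes called, with the list median at −0.02 on the log2 scale against 0.01 over all genes. Ftl1, chosen by its values, was 1 of the 4. The others were Trf, which encodes transferrin, from 30.0 ± 5.93 to 46.7 ± 6.23 CPM (log2 fold change 0.64, edgeR adjusted p = 0.0138), Hfe, a partner of transferrin receptor in iron sensing, from 15.8 ± 1.52 to 21.1 ± 3.00 CPM (0.41, 0.0297), and Abcg2, an exporter of porphyrins among other compounds, from 51.9 ± 3.73 to 62.4 ± 5.01 CPM (0.27, 0.0371; SD, n = 5 and 7). By list, 1 of 5 storage genes, 1 of 9 uptake genes, 1 of 9 heme breakdown genes and 1 of 8 sensing genes rose. None of 3 export, 9 heme synthesis and 21 mitochondrial genes passed, and Ncoa4, the receptor that sends ferritin to lysosomes, differed by 0.03 on the log2 scale (edgeR adjusted p = 0.881). Each of the 4 calls was lost when only the mice of these groups were fitted, where 0 of the listed genes passed. Also 0 passed without WT-CD replicate 1 or 3, 1 (Trf) without WT-CD replicate 2 or 4, and 2 (Ftl1 and Trf) without R403Q-CD replicate 5. The call of Abcg2 was lost also with no filter on low counts, with limma, in 3 groups without WT-EMPA and without WT-CD replicate 5, R403Q-CD replicate 2 or 4 or R403Q-EMPA replicate 2 (adjusted p from 0.0522 to 0.0698).

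In R403Q-EMPA against WT-CD 2 of 63 listed genes (3.17%) rose, against 0.971% of all genes called, Ftl1 being left out. They were Trf (log2 fold change 0.57, edgeR adjusted p = 0.0418) and Alas2, the erythroid form of the first enzyme of heme synthesis, from 36.3 ± 9.11 CPM (SD, n = 5) to 64.8 ± 16.0 CPM (n = 4; 0.83, edgeR adjusted p = 0.0438). Both calls depended on single mice. They were lost without any of R403Q-EMPA replicates 1, 2 or 3, WT-CD replicates 3 or 4 or WT-EMPA replicate 4. Trf was lost also without WT-CD replicate 1 or R403Q-EMPA replicate 4, and Alas2 without WT-CD replicates 2 or 5, WT-EMPA replicates 2 or 5 or R403Q-CD replicates 5 or 7. In R403Q-EMPA against R403Q-CD, WT-EMPA against WT-CD and R403Q-EMPA against WT-EMPA edgeR called 0, with 9 of 63, 12 of 64 and 11 of 63 genes at an unadjusted p under 0.05, against 13.4%, 11% and 14.7% of all genes. DESeq2 called Alas2 in the first, Alas2 and Cp (ceruloplasmin, a ferroxidase) in the second, and Blvrb and Cisd2 in the third, where it called 0.937%, 0.737% and 1.78% of all genes. With limma 0 were called in each, where it called 2, 1 and 9 of 17309 genes.

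Ftl1, Hmox1 and Fth1 are also known targets of NRF2, the transcription factor of the oxidative stress response. Of 8 other targets (among them Nqo1, Gclc and Txnrd1), 7 were tested. With edgeR 0 passed in any contrast, where 0 to 1.44% of all genes did. In each contrast 0 to 2 of the 7 had an unadjusted edgeR p under 0.05, as had 3.28% to 20.9% of all genes. All 7 had a log2 fold change above 0 in R403Q-CD against WT-CD, with a median of 0.17, as had 52.5% of all genes.

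Some macrophage markers were higher in the same contrast as the light chain. In R403Q-CD against WT-CD 2 of 9 macrophage markers rose, Adgre1 by 0.67 and Csf1r by 0.45 on the log2 scale (edgeR adjusted p = 0.0351 and 0.0254), where 1.44% of all genes were called, and 8 of 9 were above 0, as were 52.5% of all genes. DESeq2, with 971 of 17355 genes called in all, called 8 of 9, and edgeR 0 with these groups alone, with cage as a factor, or without WT-CD replicate 1, 2, 3 or 4 or R403Q-CD replicate 5. Without R403Q-CD replicate 1 or 3 or WT-EMPA replicate 1 it called 4, 6 and 5, in fits that called 424 of 17343, 1045 of 17349 and 307 of 17230 genes in all. Their summed level was 376 to 523 CPM in WT-CD, 533 to 910 in R403Q-CD, 317 to 562 in WT-EMPA and 613 to 753 in R403Q-EMPA, with no marker at 0 in any mouse. In R403Q-EMPA against WT-EMPA 9 of 9 were above 0 (51.7% of all genes) and 0 passed with edgeR. At an unadjusted edgeR p under 0.05 were 8 of 9, against 14.7% of all genes. Without R403Q-CD replicate 2 6 passed, where calls over all genes went from 10 of 17309 to 201 of 17176. The WT-EMPA mouse highest in Hmox1 had the lowest macrophage sum of the 21 mice, 317 CPM. Macrophages take up red cells and hold much ferritin, ferroportin and heme oxygenase, and the part of these cells in the values was not tested. In bulk tissue, more cells of a type and more RNA per cell cannot be told apart.

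The macrophage marker Cd163, the receptor for hemoglobin bound to haptoglobin, was at −0.01 on the log2 scale in R403Q-CD against WT-CD and at 0.24 in R403Q-EMPA against WT-EMPA (edgeR adjusted p = 0.966 and 0.345). Fibroblast markers (4 genes, 0 called by edgeR in any contrast and 3 at an unadjusted p under 0.05 in R403Q-CD against WT-CD, as were 20.9% of all genes) summed to 988 to 1597 CPM in WT-CD, 1324 to 3303 in R403Q-CD, 944 to 1472 in WT-EMPA and 1520 to 1715 in R403Q-EMPA. Cardiomyocyte markers (6 genes, 0 called and 2 at an unadjusted p under 0.05 in the same contrast), by far the highest as the labelled tissue has it, summed to 80193 to 88856 CPM in WT-CD, 49911 to 81093 in R403Q-CD, 79122 to 92565 in WT-EMPA and 67519 to 77085 in R403Q-EMPA. Endothelial markers (4 genes, 0 called by edgeR in any contrast) summed to 539 to 652 CPM in WT-CD, 615 to 687 in R403Q-CD, 575 to 689 in WT-EMPA and 632 to 798 in R403Q-EMPA, and overlapped between all groups. The genotypes overlapped in the fibroblast and cardiomyocyte sums on CD and in neither on EMPA, where 6.77% of all genes did not overlap. On EMPA 4 of 4 fibroblast markers (median log2 fold change 0.43) and 2 of 6 cardiomyocyte markers (median −0.07) were above 0, as were 51.7% of all genes. The largest part of the cardiomyocyte sum is Myh6, the mutated gene, with a mean of 38668 CPM. The highest fibroblast and the lowest cardiomyocyte sum were those of R403Q-CD replicate 2, and the part of these cells in the values was not tested.

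The 5 erythroid markers, the globins and Alas2, summed to 706 to 1280 CPM in WT-CD, 877 to 1717 in R403Q-CD, 1235 to 2003 in WT-EMPA and 1214 to 2660 in R403Q-EMPA. None was at 0 in any mouse, and 3 of 5 (Hbb-bs, Hbb-bt and Alas2) rose in R403Q-EMPA against WT-CD, where 0.971% of all genes were called. In the contrasts of diet within a genotype edgeR called 0 of 5, and of all genes 0.0116% in R403Q hearts and 0.0289% in WT hearts. At an unadjusted edgeR p under 0.05 were 5 in R403Q hearts and 4 in WT hearts, against 13.4% and 11% of all genes. DESeq2 called Alas2 in both and Hbb-bt in R403Q hearts, and of all genes 0.937% in R403Q hearts and 0.737% in WT hearts. With limma 0 of 5 passed in R403Q-EMPA against WT-CD, as with edgeR without WT-CD replicate 2, 3 or 4, WT-EMPA replicate 2 or R403Q-EMPA replicate 1, 2 or 3. The call of Alas2 was lost in 12 of the 21 fits that left out 1 mouse. The part of blood in the Alas2 difference was not tested.

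Some genes of the circadian clock were lower in R403Q-EMPA than in WT-CD. Ciart, a repressor of the clock, was at 11.3 to 15.2 CPM in WT-CD, 6.03 to 16.3 in R403Q-CD, 1.96 to 8.48 in WT-EMPA and 2.27 to 7.47 in R403Q-EMPA. Of 14 clock genes 2, Ciart and Hlf, fell in R403Q-EMPA against WT-CD (log2 fold changes −1.63 and −0.87, edgeR adjusted p = 0.0418 and 0.0244), where 0.971% of all genes were called, and 11 had an unadjusted p under 0.05 (13% of all genes). Both calls were lost without WT-CD replicate 1, 2 or 5 or R403Q-EMPA replicate 3 or 4. That of Ciart was lost also without WT-CD replicate 3 or 4 or R403Q-EMPA replicate 2. With these groups alone 9 of 14 passed, where 4.07% of all genes did. In each contrast of diet within a genotype edgeR called 0 of 14, with 9 at an unadjusted p under 0.05. Of all genes, 13.4% had such a p in R403Q hearts and 11% in WT hearts. DESeq2 called Ciart in both and Nr1d1 in R403Q hearts, and of all genes 0.937% in R403Q hearts and 0.737% in WT hearts. The summed level was 994 to 1215 CPM in WT-CD, 894 to 1152 in R403Q-CD, 691 to 1102 in WT-EMPA and 697 to 895 in R403Q-EMPA. These sums add genes that went both ways. In R403Q-EMPA against WT-CD 3 of the 14 had a log2 fold change above 0, as had 52.2% of all genes. The part of clock genes in the diet contrasts was not tested.

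Genes most like Ftl1 in their course over the 21 mice were, after Ftl1-ps1, Htatip2 (r 0.841), Tkt, which encodes transketolase (0.838), Hlx (0.822) and Tbce (0.818). About the group means these r values fell to 0.565, 0.31, 0.479 and 0.25, so that much of the likeness was between groups. Htatip2, for example, ran from 15.8 to 17.4 CPM in WT-CD, from 21.5 to 25.3 in R403Q-CD, from 15.2 to 19.8 in WT-EMPA and from 21.2 to 22.9 in R403Q-EMPA.

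Fth1 kept other company. The genes most like it were Ndufb8 (r 0.903), Bag1 (0.895), Cox5a (0.888), Chchd10 (0.886) and Atp5g1 (0.884), of which Ndufb8, Cox5a and Atp5g1 encode subunits of the respiratory chain and ATP synthase. About the group means these stayed at 0.885, 0.888, 0.861, 0.921 and 0.878. For Tfrc they were Pcbp4 (0.792), Actc1 (0.792), Hacd1 (0.787), Pop7 (0.779) and Alas1, the housekeeping first enzyme of heme synthesis (0.761). None of the 5 nearest genes was shared between Ftl1, Fth1 and Tfrc. These r values are descriptions over 21 mice that share diet and genotype groups, and libraries of differing depth.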

How the data were processed

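Polyadenylated RNA was read as 100-base pairs. Per the labels and methods, the authors aligned the pairs to mm10 with STAR 2.6.0c and made the deposited counts with featureCounts (Subread 1.6.2, uniquely aligned proper pairs, mitochondrial genes left out). The deposited log2 values are DESeq2 1.32.0 variance-stabilized counts and were used only as an alternative. Groups came from the sample labels. All 21 mice were fitted together with edgeR 4.0.16 in R 4.3.3 (filterByExpr with a minimum count of 10, TMM, quasi-likelihood test, 17309 genes, Benjamini-Hochberg adjusted p under 0.05), which was tested on simulated data. CPM are TMM scaled, and correlations were taken on log2 CPM (prior count 2). Standard errors were taken from the F statistic. edgeR p-values were adjusted over all genes tested, and correlation p-values over the 21 pairs of the 7 genes named for their function.

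Genes named were the 9 of the set, up to 5 called genes of each list and the 5 genes most like Ftl1, Fth1 and Tfrc. Some uncalled listed genes, such as Ncoa4, Cd163 and Nqo1, were named for what they do. The members and lists were chosen with earlier results of these data known. Ftl1 and Ftl1-ps1 were compared by a test only among groups without R403Q-EMPA mice. Stretches and UTRs came from GENCODE M21 (GRCm38). p-values measure the spread between these mice. Floors cover counting error only. Alternatives were DESeq2 1.42.0, limma 3.58.1 on the log2 values, no filter, library size alone, fewer groups, cage as a factor and leaving out each mouse, and 0 were added later.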

Additional observations from a re-analysis of the deposited data

Results flagged for a closer look

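In groups of 4 to 7 mice, the highest or lowest mouse was compared with its group by Dixon's gap test for 34 sets of 1 gene in 1 group, of which chance marks about 1 in 20. The 2 sets of Ftl1 and Ftl1-ps1 in R403Q-EMPA, whose values chose these genes, were not tested. The test marked 2. Hmox1 in WT-EMPA replicate 1 was at 63.9 CPM, with the other 4 between 19.0 and 29.9 CPM (0.757 of the range). Aco1 in R403Q-EMPA replicate 3 was at 45.9 CPM, with the other 3 between 49.3 and 49.5 CPM (0.946 of the range).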

How the results depend on the processing

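In R403Q-CD against WT-CD, 2 of the 9 genes, both chosen by their values, and 4 of the listed iron genes passed. These counts were 0 and 0 when only these groups were fitted and with cage as a factor among the CD mice, and 1 (Ftl1) and 2 in 3 groups without WT-EMPA. Leaving out each mouse in turn gave 0 to 2 genes of the set and 0 to 6 of the lists (with 1045 of 17349 genes called in all without R403Q-CD replicate 3, where the lists had 6, and 36 and 31 without WT-CD replicates 1 and 3, where they had 0), and for Ftl1 and Ftl1-ps1 summed a log2 fold change of 0.31 to 0.39 (adjusted p from 0.0181 to 0.0773, against −0.13 to −0.06 in WT-EMPA against WT-CD). The call of the sum was lost without WT-CD replicate 1, 2, 3 or 4. In the other contrasts, DESeq2 called 1 listed gene in R403Q-EMPA against R403Q-CD, 2 in WT-EMPA against WT-CD and 2 in R403Q-EMPA against WT-EMPA, where edgeR called 0. Leaving out 1 mouse gave 0 to 1 in R403Q-EMPA against WT-EMPA, for the set (without WT-EMPA replicate 1) and for the lists (also without R403Q-CD replicate 2). In R403Q-EMPA against WT-CD the set went from 0 to 1 in the fit of those groups alone, and the lists from 2 (Trf and Alas2) to 5 there, to 1 with limma (Trf) and to 1 without WT-EMPA (Cp, with Trf and Alas2 both lost), and ran from 0 to 2 when 1 mouse was left out. DESeq2 called 971 genes in all in R403Q-CD against WT-CD, edgeR 250, and edgeR on those groups alone 28. No called value changed sign. Of 44 values below the threshold, 11 changed sign under at least 1 alternative. Fewer mice were used where single groups were fitted, and otherwise the cause was not tested. Mice could not be matched singly, since each gave 1 library and the labels carry no replicate numbers, and cage was fitted as a factor among the mice of each diet. Among the EMPA mice 0 of 7 genes and 0 listed genes passed with it, as without it. The lowest count of any of the 9 genes in a mouse was 588 (Slc11a2).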
